A study of Mus musculus with 12 samples.

Results

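The 10 genes described here encode core proteins of autophagy: Ulk1, Becn1, Atg5, Atg7, Map1lc3a, Map1lc3b, Gabarap, Gabarapl1, Gabarapl2 and Sqstm1. They were chosen by name, and all 10 were found among the 23230 genes of the expression table. Their transcripts were measured by RNA sequencing in oocytes of wild-type (WT) mice and of mice lacking Zar1 and Zar2 (Zar1/2-null), genes for RNA-binding proteins of the oocyte. WT growing and Zar1/2-null growing oocytes came from females aged 13.5 days according to the labels, and the methods give a slightly younger age. WT GV and Zar1/2-null GV oocytes, fully grown and still holding the germinal vesicle, came from 21-day-old females 44 h after PMSG, a gonadotropin that drives follicle growth. WT MII and Zar1/2-null MII oocytes were ovulated oocytes taken 16 h after hCG, the hormone that triggers ovulation. In the paper's superovulation method PMSG was given 44 h before hCG, to females of about the same age as in the GV groups. The Zar1/2-null MII group is named by when it was collected. In the study, ovulated Zar1/2-null oocytes stopped within the first meiotic division, so genotype and meiotic stage cannot be told apart in this group. The authors also held maturing oocytes in that division with nocodazole and reported, by RT-qPCR, that decay of selected mRNAs was unaffected. Each of the 6 groups had 2 libraries of 10 oocytes, all on a C57BL6/ICR hybrid background, and all lysates received the same dose of the ERCC spike-in, a mix of synthetic RNAs. The null alleles were made with CRISPR/Cas9, as a short deletion followed by a stop codon in Zar1 and a frame-shifting deletion in the first exon of Zar2. It is not stated whether replicate libraries came from separate females, so p-values measure the spread between libraries, which may be technical.

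Autophagy encloses cytoplasm in a double membrane, the autophagosome, and delivers it to the lysosome. The ULK1 kinase starts the process, and Beclin 1 (Becn1) belongs to the lipid kinase complex that marks the membrane where the autophagosome forms. ATG7, an E1-like enzyme, and ATG5, part of the ATG12-ATG5-ATG16L1 conjugate, then attach small ubiquitin-like proteins of the ATG8 family to the lipid phosphatidylethanolamine. The ATG8 family comprises the LC3 proteins (Map1lc3a, Map1lc3b) and the GABARAP proteins (Gabarap, Gabarapl1, Gabarapl2), to which receptors such as p62 (Sqstm1) bind with their cargo. Mouse embryos from eggs without ATG5 develop only if the sperm brings a working copy of the gene, and autophagy rises after fertilisation, when the embryo still lives on maternal stores.

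The widest difference between genotypes described here was that of an ATG8 gene, Map1lc3a, so the coding ends of this family are shown, from the mm9 build with the GENCODE M1 annotation. Each line gives the last 30 coding bases, with the codon of the glycine that ATG4 proteases expose, and that is joined to the lipid, in capitals.
Map1lc3a, chr2:155103344-155103373, plus strand: tacgcctcccaagaaaccttcGGCttctga
Map1lc3b, chr8:124120641-124120670, plus strand: gagacattcGGGacagcaatggctgtgtaa
Gabarap, chr11:69807997-69808026, plus strand: tacagtgatgaaagcgtctatGGTctgtga
Gabarapl1, chr6:129491156-129491185, plus strand: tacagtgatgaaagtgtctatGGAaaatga
Gabarapl2, chr8:114476276-114476305, plus strand: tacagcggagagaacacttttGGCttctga
The glycine was codon 120 in both LC3 genes and codon 116 in the 3 GABARAP genes. It was followed by 1 codon before the stop in 4 genes and by 5 codons in Map1lc3b. The coding sequences of Map1lc3a and Map1lc3b were 74.7% identical and those of Gabarap and Gabarapl1 74.9%, against 50.6% to 55.2% between an LC3 and a GABARAP gene. No stretch of at least 50 bases of the Map1lc3a transcript had a copy of at least 98% identity elsewhere in the genome. Such copies covered 39.5% of the Map1lc3b transcript and 58.2% of that of Gabarapl2. Reads from these stretches may not map uniquely, and the authors kept only uniquely mapped reads, so the levels of Map1lc3b and Gabarapl2 are less certain than that of Map1lc3a.

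The end of the 3′ untranslated region bears on how oocytes lengthen poly(A) tails, so the polyadenylation signal (AATAAA, in capitals) of the 4 genes that differed between the genotypes in MII oocytes is shown with its neighbouring bases.
Map1lc3a, chr2:155103762-155103791, plus strand: gtcatttcctctgcagaaagAATAAAgact
Map1lc3b, chr8:124121906-124121935, plus strand: cctgtacactctgatgcactAATAAAggca
Gabarapl2, chr8:114477478-114477507, plus strand: agggcattcatacagataaaAATAAAtctt
Atg5, chr10:44084055-44084084, plus strand: ataatggttctagattcaatAATAAAgatg
A signal lay within the last 40 bases of the annotated transcript in 9 of the 10 genes, all but Atg7, against 76.1% of 9779 genes with a long enough 3′ untranslated region. The U-rich letters TTTTAT or TTTTAAT, searched on the transcript strand, were found within 100 bases before the signal in 0 of these 9 genes, against 19.2% of the 7437 genes with a signal. The 3′ untranslated region of Map1lc3a was short, since only 27.4% of genes had a shorter one, against 62.4% for Map1lc3b with 1277 bases.

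The authors gave levels as FPKM (fragments per transcript length and library size) multiplied by a factor from the ERCC reads. FPKM is per length, so levels can be compared between genes, but less surely for Map1lc3b and Gabarapl2, where reads may be lost. The table holds no read counts, so the depth and the counting error behind a single value are not known. The factors, recovered from the digits of the values, fell from 1 in WT growing oocytes to between 0.225 and 0.283 in the MII libraries. In these bulk libraries a lower value cannot be told apart from fewer oocytes or less RNA per oocyte. The authors reported that poly(A) tails of selected mRNAs lengthened as WT oocytes matured, but not in the null oocytes. Whether tail length altered the capture of mRNAs in these libraries was not tested, so a value may not reflect mRNA amount alone. Of the 10 genes, 9 reached 1 FPKM in at least 1 library and were tested with limma among 11502 such genes, on log2(FPKM + 1), which understates the change of low genes. The tenth, Gabarapl1, did not reach that level and was not tested. Zar1l, the table's symbol for Zar2, stood at 639 and 644 FPKM in WT growing oocytes and at 17.5 and 13.2 in Zar1/2-null growing oocytes. Zar1, whose null allele need not remove the mRNA, was lower in Zar1/2-null growing (603 and 725 against 407 and 460) and GV oocytes (439 and 423 against 136 and 203) and higher in Zar1/2-null MII oocytes (83.6 and 72.4 against 190 and 194, log2 fold change 1.29, limma adjusted p = 0.000381). Of 10 oocyte markers, all reached 1 FPKM in every group except Figla in WT MII oocytes. The 14 granulosa and cumulus markers summed to 5.15 to 32.7 FPKM, mainly from Nr5a2 and Cyp19a1, and the 5 immune markers to at most 3.07. Of 5 listed oviduct markers, the 4 found among the measured genes summed to at most 1.32.

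Atg5 had the highest measured level of the 10 genes in every group, though lost reads may lower that of Gabarapl2. In WT growing oocytes it stood at 301 and 289 FPKM, followed by Gabarapl2 at 103 and 98.8 and Map1lc3b at 60.8 and 66.2. Becn1 (30.8 and 33.1) and Map1lc3a (27.8 and 33.7) overlapped there, and so did Atg7 (3.69 and 5.03) and the kinase gene Ulk1 (3.48 and 3.91). Atg5 lay at percentile 92.5 to 97.0 of the tested genes in the 6 groups, and Atg7, which acts before it, at percentile 30.7 to 35.7. Gabarapl1 was the lowest of the 10, at no more than 0.464 FPKM in any library, and it is listed at 0 in both Zar1/2-null MII libraries, where a 0 may be a failed estimate.

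**Figure D1:**
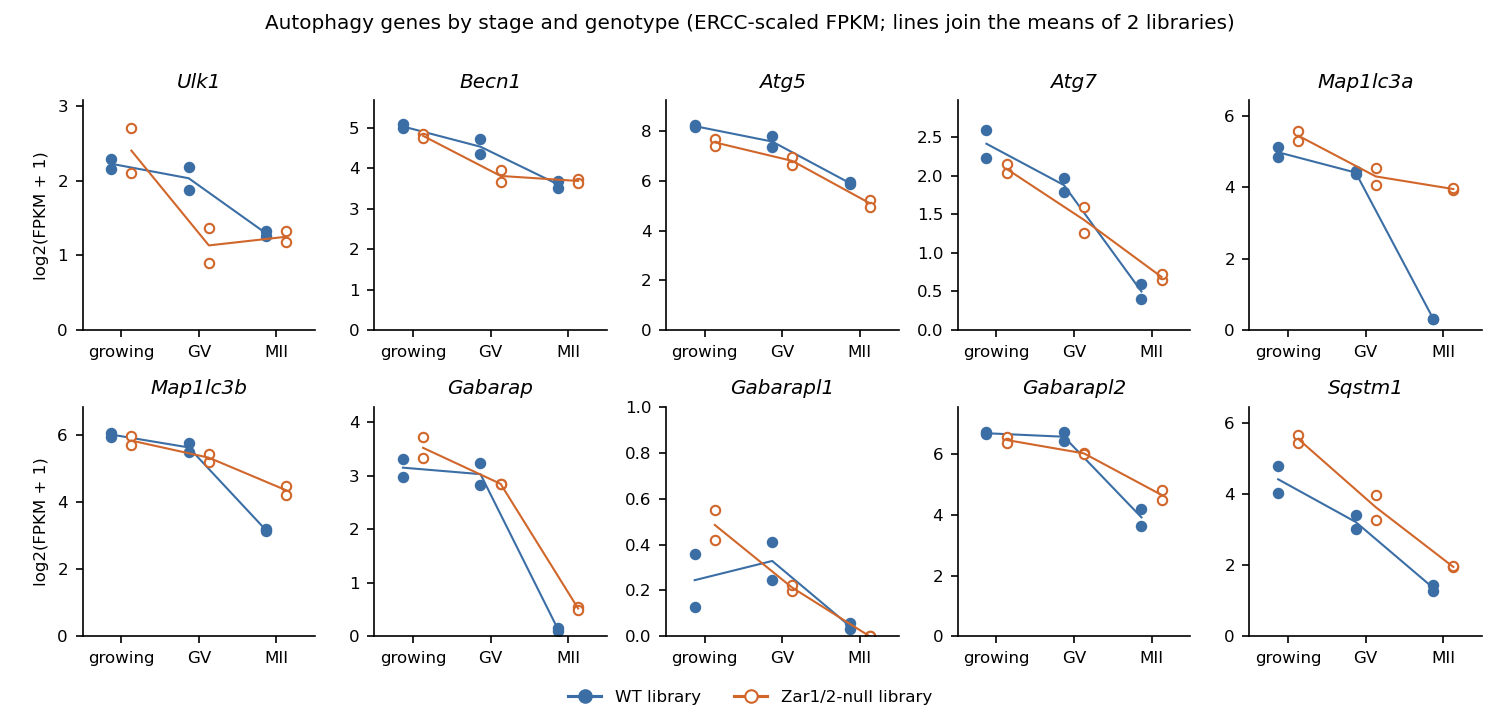
Level of each of the 10 genes as log2(FPKM + 1), from ERCC-scaled FPKM, on the vertical axis of each panel, by stage on the horizontal axis. Points are libraries (filled, WT; open, Zar1/2-null) and lines join the means of 2 libraries. In the Map1lc3a panel the WT MII libraries lie near 0 (0.251 and 0.247 FPKM) while the Zar1/2-null MII libraries stay at 14.2 and 14.8 FPKM.

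In MII oocytes, 3 of the 9 tested genes had a higher level in the Zar1/2-null libraries, against 21.5% of all tested genes, and 1 was lower, against 10.3%. The higher genes all encode ATG8 proteins (Map1lc3a, Map1lc3b and Gabarapl2), and the lower gene was Atg5. Map1lc3a showed by far the widest gap. It measured 0.251 and 0.247 FPKM in the WT MII libraries and 14.2 and 14.8 FPKM in the Zar1/2-null MII libraries. The Zar1/2-null libraries were both far above the WT libraries, and the gap was many times the difference within either pair. The log2 fold change was 3.63 (SE 0.18, 95% interval 3.24 to 4.02, limma adjusted p = 3.34e-08). With the WT mean set to 1 FPKM, Map1lc3a was 14.5-fold higher, and it was the only 1 of the 10 genes past 3-fold, as were 7.49% of all genes upward. Before ERCC scaling the WT MII libraries stood at 1.12 and 1.09 FPKM and the Zar1/2-null MII libraries at 50.3 and 58.5. Its log2 fold change on these values was 4.72 (limma adjusted p = 5.2e-09), where the added 1 FPKM weighs less on the low WT values. Map1lc3a ranked at percentile 26.1 of the tested genes in WT MII oocytes and at percentile 86.1 in Zar1/2-null MII oocytes.

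The other LC3 gene moved in the same direction in MII oocytes, by less. Map1lc3b measured 7.74 and 8.09 FPKM in WT and 21.5 and 17.4 in Zar1/2-null MII oocytes, with no overlap (log2 fold change 1.19, SE 0.17, adjusted p = 0.000231). Gabarapl2, of the GABARAP group, measured 17.1 and 11.5 against 26.8 and 21.5, again with no overlap (0.74, SE 0.20, adjusted p = 0.0131). The call for Gabarapl2 rested on single libraries: without WT MII replicate 2 the adjusted p was 0.131, and without Zar1/2-null MII replicate 1 it was 0.11. Fitted with only the libraries compared it was 0.0700. Gabarap was low in both genotypes, at 0.119 and 0.0755 FPKM in WT and 0.471 and 0.401 in Zar1/2-null MII oocytes. The 2 pairs did not overlap, but the difference did not pass the test on the deposited values (0.39, SE 0.18, adjusted p = 0.136). It passed with the ERCC factor divided out (0.88, adjusted p = 0.00419), which also lowers the weight of the added 1 FPKM. It passed as well with a pseudocount of 0.1 FPKM (1.45, adjusted p = 0.000346) and with only the libraries compared (adjusted p = 0.00761).

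Atg5 differed in the opposite direction in MII oocytes. It measured 57.5 and 61.5 FPKM in WT and 36.7 and 30.3 in Zar1/2-null oocytes, both of the latter lower (log2 fold change −0.81, SE 0.19, adjusted p = 0.00609). The adjusted p was 0.0547 without Zar1/2-null MII replicate 2, and the fold change was −1.07 (adjusted p = 2.47e-05) with the ERCC factor divided out. Becn1 overlapped between the genotypes, at 11.97 and 10.44 FPKM in WT and 12.3 and 11.5 in Zar1/2-null MII oocytes (0.085, 95% interval −0.28 to 0.45). Ulk1 overlapped as well, at 1.39 and 1.51 against 1.26 and 1.51 (−0.043, 95% interval −0.51 to 0.42). Sqstm1 measured 1.44 and 1.73 in WT and 2.85 and 2.91 in Zar1/2-null MII oocytes, and Atg7 0.323 and 0.511 against 0.570 and 0.653. Both pairs were without overlap, and neither difference passed the test (adjusted p = 0.125 and 0.454). That of Sqstm1 passed with a pseudocount of 0.1 FPKM (adjusted p = 0.0370) and with only the libraries compared (0.0315).

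Over the 9 tested genes the median log2 fold change in MII oocytes was 0.39, and over all tested genes it was 0.060. Non-overlapping libraries were found for 6 of the 9 in the higher direction (43.5% of all genes) and for 1 in the lower direction (27.8%). The summed granulosa and cumulus markers were 5.15 and 5.56 FPKM in WT and 7.31 and 8.49 in Zar1/2-null MII oocytes, and the part of such cells in these differences was not tested. Dividing out the ERCC factor took the share of all genes called lower in MII oocytes to 22.7% and the share called higher to 23.9%. It moved the median of all genes from 0.060 to −0.0027 in MII oocytes, from −0.38 to −0.026 in GV oocytes and from −0.16 to 0.079 in growing oocytes. Between stages it moved the median from −1.28 to −0.39 for GV to MII in WT and from −0.72 to −0.25 in Zar1/2-null oocytes.

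**Figure D2:**
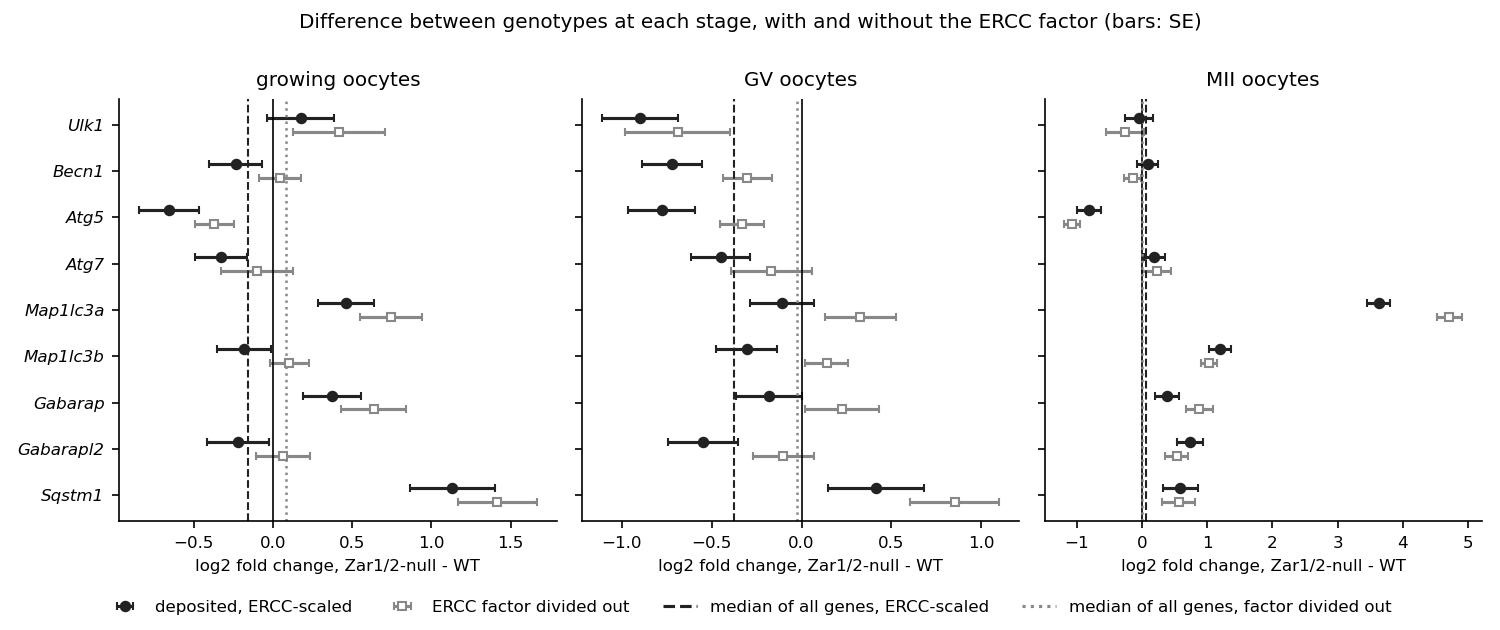
Log2 fold change between Zar1/2-null and WT oocytes (horizontal axis, ± SE from limma) of the 9 tested genes at each stage, on ERCC-scaled values (filled) and with the ERCC factor divided out (open). Dashed and dotted lines mark the median of all tested genes on each scale. Map1lc3a in MII oocytes lies at 3.63 and 4.72 on the 2 scales, and in GV oocytes dividing out the factor moves all 9 points to the right.

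The ATG8 transcripts can be compared within a library, which takes the ERCC factor out of the comparison. In each WT library the largest part of the summed ATG8 FPKM came from Gabarapl2, with 51.9% and 47.5% in growing, 55.7% and 54.3% in GV and 67.8% and 57.6% in MII oocytes. Map1lc3a supplied 13.98% and 16.2% in WT growing oocytes, 10.6% and 13.5% in WT GV oocytes, and 0.993% and 1.24% in WT MII oocytes. In Zar1/2-null oocytes it supplied 19.2% and 24.5%, then 13.1% and 16.5%, and finally 22.6% and 27.3%. The share of Map1lc3a was thus lowest in the WT MII libraries, while in the Zar1/2-null MII libraries it was above the Zar1/2-null GV libraries. Map1lc3b held between 26.6% and 40.6% in every library, with overlapping WT (30.6% and 40.6%) and Zar1/2-null (34.1% and 32.2%) MII values. The summed level was 25.3 and 19.9 FPKM in WT and 63.0 and 54.1 FPKM in Zar1/2-null MII oocytes, from 185 and 155 against 122 and 134 in GV oocytes.

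**Figure D3:**
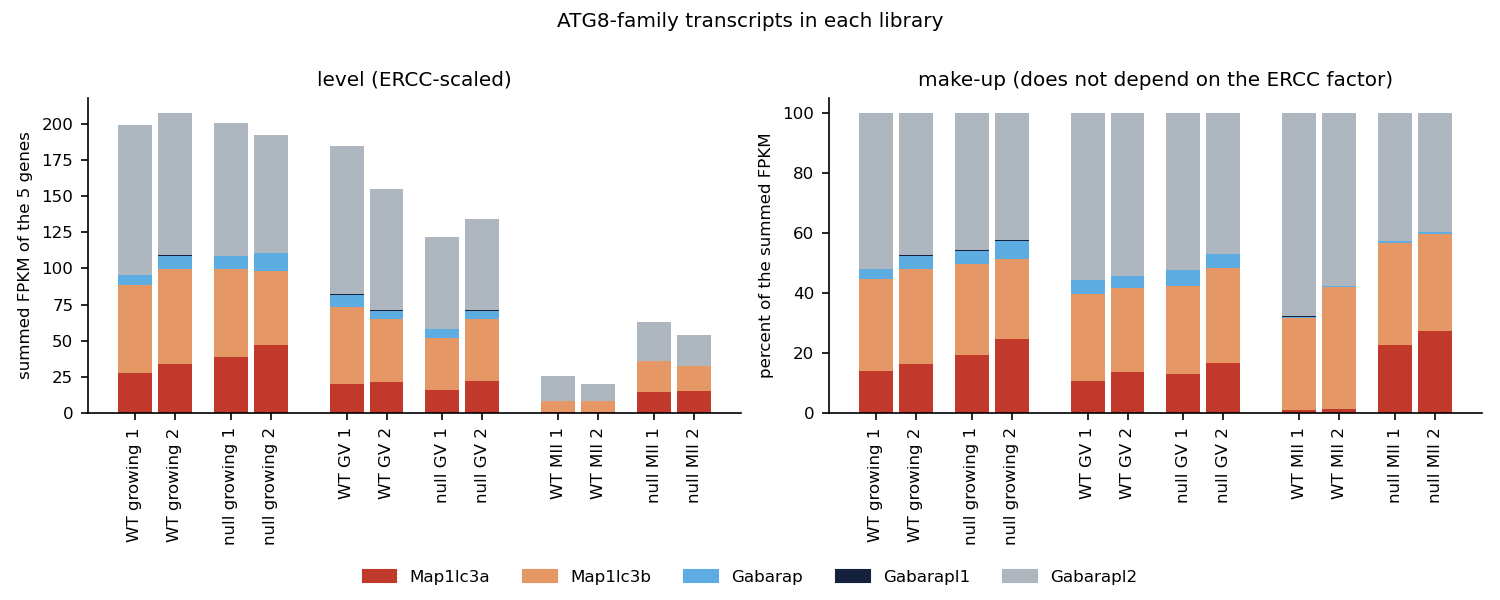
The 5 ATG8-family genes in each of the 12 libraries as stacked bars: ERCC-scaled FPKM (left) and percent of their summed FPKM (right, independent of the ERCC factor). The Map1lc3a band, at 10.6% or more in all other libraries, is at 0.993% and 1.24% in the WT MII libraries.

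From GV to MII, all 9 tested genes fell in WT oocytes on the deposited scale, as did 93.4% of all tested genes. Map1lc3a fell furthest, from 19.6 and 21.0 FPKM to 0.251 and 0.247 (log2 fold change −4.09, SE 0.18, adjusted p = 1.94e-09), and was the only 1 past a 10-fold fall, as were 15.7% of all genes. Gabarap fell from 8.43 and 6.06 to 0.119 and 0.0755 (−2.89), Gabarapl2 from 103 and 84.3 to 17.1 and 11.5 (−2.65) and Map1lc3b from 53.6 and 43.7 to 7.74 and 8.09 (−2.47). All of the 9 but Ulk1 and Becn1 fell by more than the median of all genes, which was −1.28. Once genes averaging under 5 FPKM were left out, the median was −2.03. The 4 tested ATG8 genes fell by more than that, and Atg5 (−1.67), Sqstm1 (−1.85) and Becn1 by less. Atg7 (−1.38) and Ulk1 averaged under 5 FPKM, so they are not among the genes of that median. Ulk1 fell least (−0.74, adjusted p = 0.00584), a call lost without WT GV replicate 2 (0.0582). Before ERCC scaling 5 genes were lower, against 46.1% of all genes: the 4 tested ATG8 genes at −0.84 to −3.72 and Atg7 at −0.68. Becn1 turned higher on that scale (0.74, adjusted p = 0.000512), where 2332 of all 12155 genes were called higher. Ulk1 (0.55) and Atg5 (0.068) were also above 0 but not past the test.

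In Zar1/2-null oocytes 6 of the 9 fell from GV to MII, against 68.7% of all genes, and the median was −0.97 against −0.72. Map1lc3a went from 15.9 and 22.2 FPKM to 14.2 and 14.8, which did not pass the test (−0.35, 95% interval −0.74 to 0.035, adjusted p = 0.0953). Before ERCC scaling it rose (0.67, adjusted p = 0.0119), as did Becn1 (0.90) and Ulk1 (0.97). Of all 12155 genes tested on that scale, 2289 were called higher. Gabarap fell in Zar1/2-null oocytes as well, from 6.21 and 6.17 to 0.471 and 0.401 (−2.32, adjusted p = 5.38e-07), and also with the factor divided out (−2.20). Atg5 fell from 100 and 123 to 36.7 and 30.3 (−1.71, adjusted p = 8.65e-06), and Sqstm1 from 8.75 and 14.8 to 2.85 and 2.91 (−1.68, adjusted p = 0.000177).

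**Figure D4:**
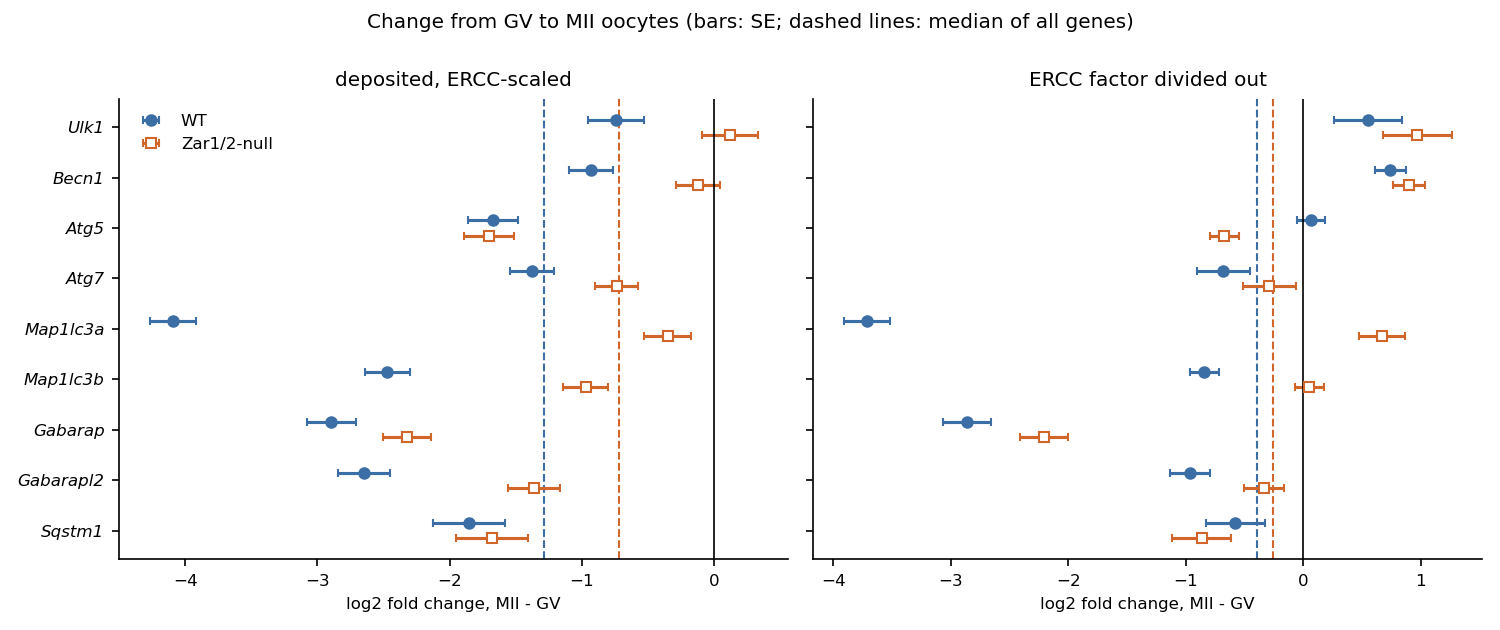
Log2 fold change from GV to MII oocytes (horizontal axis, ± SE from limma) of the 9 tested genes in WT (filled circles) and Zar1/2-null (open squares) oocytes, on ERCC-scaled values (left) and with the ERCC factor divided out (right). Dashed lines mark the median of all genes in each genotype. Map1lc3a shows the widest gap between genotypes, −4.09 against −0.35 on the left.

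The difference between the genotypes in this GV to MII change was tested as an interaction term. It was called for 5 of the 9 genes, all in the direction of a smaller fall in Zar1/2-null oocytes, against 33.9% of all genes. The term was 3.74 for Map1lc3a (SE 0.25, adjusted p = 9.37e-07), 1.5 for Map1lc3b (adjusted p = 0.000776), 1.28 for Gabarapl2 (adjusted p = 0.00479), 0.86 for Ulk1 (adjusted p = 0.0464) and 0.81 for Becn1 (adjusted p = 0.0225). The median of all genes was 0.48. Before ERCC scaling that median was 0.030 and the term was called for Map1lc3a (4.39), Map1lc3b (0.89, adjusted p = 0.00306) and, in the opposite direction, Atg5 (−0.74, adjusted p = 0.00993). On that scale 1739 of all 12155 genes were called with a higher term and 750 with a lower one. The term of Gabarap was 0.57 (95% interval 0.00097 to 1.14, adjusted p = 0.106). The call of Becn1 was lost without any 1 of 4 libraries (WT GV replicate 1, Zar1/2-null GV replicate 1, WT MII replicate 2 or Zar1/2-null MII replicate 1, adjusted p up to 0.0829) and that of Ulk1 without any 1 of 9 (up to 0.144). Those of Map1lc3a, Map1lc3b and Gabarapl2 passed whichever library was left out (adjusted p up to 0.0265). The MII comparison of the genotypes, the GV to MII changes and this term share the MII libraries, so they are not independent of each other.

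In GV oocytes 5 of the 9 tested genes were lower in Zar1/2-null oocytes, against 40.6% of all genes, with Sqstm1 alone above 0. Among the early steps, Ulk1 fell from 2.69 and 3.55 FPKM to 1.58 and 0.870 (log2 fold change −0.90, SE 0.21, adjusted p = 0.00609) and Becn1 from 25.5 and 19.4 to 11.7 and 14.6 (−0.72, SE 0.17, adjusted p = 0.00549). Among the conjugation genes, Atg5 fell from 220 and 166 to 100 and 123 (−0.78, SE 0.19, adjusted p = 0.00702) and Atg7 from 2.44 and 2.92 to 1.40 and 2.01 (−0.45, SE 0.16, adjusted p = 0.045). In these 4 genes and in Gabarapl2 (103 and 84.3 against 63.7 and 63.1, −0.55, adjusted p = 0.0412) WT and Zar1/2-null libraries were without overlap, as for 63.6% of all genes in this direction. Map1lc3a, which stood so far apart in MII oocytes, overlapped in GV oocytes, at 19.6 and 21.0 against 15.9 and 22.2 (−0.11, 95% interval −0.50 to 0.28). Map1lc3b measured 53.6 and 43.7 against 35.7 and 42.5, without overlap and without passing the test (−0.31, adjusted p = 0.162). Gabarap overlapped, and Sqstm1, at 9.69 and 7.14 against 8.75 and 14.8, did as well.

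These GV differences depended on the scale and on single libraries. The median log2 fold change of the 9 genes was −0.45 and that of all genes −0.38, so relative to all genes Ulk1 was lower by −0.52, Atg5 by −0.40, Becn1 by −0.35, Gabarapl2 by −0.17 and Atg7 by −0.074. Before ERCC scaling the only call limma made among the 9 was Sqstm1, which was higher (0.85, adjusted p = 0.0334), where 7.26% of all genes were higher and 13.1% lower. Leaving out 1 library could end each of the 5 calls. That of Atg5 was lost without WT GV replicate 1 (adjusted p = 0.071) or Zar1/2-null GV replicate 1 (0.0516), that of Becn1 without WT GV replicate 1 (0.0553), and that of Ulk1 without WT GV replicate 2 (0.0504) or Zar1/2-null GV replicate 2 (0.052). The call of Atg7 was lost without any 1 of 9 of the 12 libraries (adjusted p up to 0.255) and that of Gabarapl2 without any 1 of 7 (up to 0.233). Of the bases of the GENCODE M1 transcript of Becn1 with the longest coding part, 51.5% also lie in exons of Cntd1 on the opposite strand. Reads of the 2 genes from shared bases cannot be told apart without strand. The authors used UCSC gene models, in which this overlap was not measured. Cntd1 measured 5.86 and 4.60 FPKM against 4.58 and 7.09 in GV oocytes, and it was lower in Zar1/2-null growing oocytes (12.05 and 12.44 against 9.13 and 5.76, log2 fold change −0.68, limma adjusted p = 0.0307). Its part in the values of Becn1 was not tested. The summed granulosa and cumulus markers were 17.3 and 19.7 FPKM in WT and 13.8 and 15.6 in Zar1/2-null GV oocytes, and their part was not tested either.

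In growing oocytes Sqstm1, the cargo receptor gene, was higher without Zar1 and Zar2. It measured 15.5 and 26.9 FPKM in WT and 49.5 and 42.7 in Zar1/2-null growing oocytes, without overlap (log2 fold change 1.13, SE 0.27, adjusted p = 0.00772). The call was lost without WT growing replicate 1 (adjusted p = 0.0841), and the fold change was 1.41 (adjusted p = 0.0021) with the ERCC factor divided out. Atg5 was lower, at 301 and 289 against 208 and 168 (−0.66, SE 0.19, adjusted p = 0.0196), a call lost without WT growing replicate 1 (0.0982), WT growing replicate 2 (0.0708) or Zar1/2-null growing replicate 2 (0.151). It was −0.37 with the factor divided out (adjusted p = 0.0442). Thus 1 of the 9 tested genes was higher, against 10.6% of all genes, and 1 was lower, against 24.4%. Map1lc3a measured 27.8 and 33.7 against 38.6 and 47.1, and Gabarap 6.88 and 8.984 against 8.997 and 12.1, the WT libraries lower in each case. Neither passed the test on the deposited scale (0.46 and 0.37, adjusted p = 0.0622 and 0.14), and both did with the factor divided out (0.75 and 0.63, adjusted p = 0.0167 and 0.0412), where 14.4% of all genes were higher and 11.7% lower. Becn1, Map1lc3b, Gabarapl2, Atg7 and Ulk1 did not pass the test on either scale, and their log2 fold changes on the deposited scale lay between −0.33 and 0.18. In these libraries the summed granulosa and cumulus markers ran from 29.2 to 32.7 FPKM in WT and from 14.3 to 22.3 in Zar1/2-null oocytes, and the immune markers from 0.458 to 1.21 and from 3.02 to 3.07. The part of such cells in the differences was not tested.

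Over the 3 stages, Atg5 was the only 1 of the 10 genes called lower in Zar1/2-null oocytes at each stage, with −0.66, −0.78 and −0.81. Without the ERCC factor the GV difference of Atg5 did not pass the test (−0.33, adjusted p = 0.0805). The effect in GV oocytes differed from that in growing oocytes for 1 gene, Ulk1 (interaction −1.08, SE 0.30, adjusted p = 0.0382), among 11.3% of all genes with a lower term. It was not called before ERCC scaling (−1.10, adjusted p = 0.144), nor without any 1 of 10 of the 12 libraries (adjusted p up to 0.123).

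During growth, from growing to GV oocytes, 5 of the 9 tested genes fell in WT oocytes (28.7% of all genes) and 8 in Zar1/2-null oocytes (55.9%). Sqstm1 fell most in both, from 15.5 and 26.9 FPKM to 9.69 and 7.14 in WT (−1.20, adjusted p = 0.00903) and from 49.5 and 42.7 to 8.75 and 14.8 in Zar1/2-null oocytes (−1.92, adjusted p = 0.000162). In WT, Atg5 (−0.62), Map1lc3a (−0.57), Atg7 (−0.54) and Becn1 (−0.50) fell as well. In Zar1/2-null oocytes the other calls were Ulk1 (−1.27), Map1lc3a (−1.14), Becn1 (−0.99), Atg5 (−0.75), Gabarap (−0.67), Atg7 (−0.66) and Map1lc3b (−0.51), and Gabarapl2 did not pass the test (−0.44, adjusted p = 0.0697). Each of the 5 calls in WT was lost without WT growing replicate 2 (adjusted p from 0.0851 for Sqstm1 to 0.209 for Atg7). In Zar1/2-null oocytes the call of Atg5 was lost without Zar1/2-null growing replicate 1 (0.052), that of Gabarap without Zar1/2-null growing replicate 2 (0.0801) and that of Map1lc3b without Zar1/2-null growing replicate 1 (0.146) or Zar1/2-null GV replicate 1 (0.125). Before ERCC scaling limma called 0 of the 9 in WT, where 1 had an unadjusted p under 0.05. Of all 12155 genes tested on that scale, 365 were called lower and 426 higher in WT. Sqstm1 (−1.41), Ulk1 (−0.99), Map1lc3a (−0.61) and Becn1 (−0.47) were called lower in Zar1/2-null oocytes, as were 2494 of the 12155 genes.

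The wider pathway was described by 8 lists of 69 genes that include the 10, of which 68 were in the table and 60 were tested. In MII oocytes 14 of the 60 were higher in Zar1/2-null oocytes, against 21.5% of all genes, and 3 were lower, against 10.3%, with a median log2 fold change of 0.14 against 0.060 for all genes. Before ERCC scaling 16 of 62 were higher, against 23.9% of all genes, and 12 were lower, against 22.7%, with a median of −0.046. The higher genes with at least a 3-fold difference were Map1lc3a, Vamp8 and 2400001E08Rik. Vamp8, a SNARE of fusion with the lysosome, measured 1.32 ± 0.323 FPKM in WT and 10.5 ± 3.50 in Zar1/2-null MII oocytes (SD, n = 2; log2 fold change 2.28, adjusted p = 5.58e-06). 2400001E08Rik, an older symbol of Lamtor1, a subunit of the Ragulator complex that anchors mTORC1 at the lysosome, measured 13.4 ± 1.057 and 67.7 ± 2.97 (2.25, adjusted p = 2.34e-06). Atg14, which brings the Beclin 1 lipid kinase complex to the site of autophagosome formation, was lower, at 6.94 ± 1.38 against 1.86 ± 0.236 (−1.46, adjusted p = 6.15e-05). Of the 4 tested ATG8 genes 3 were higher, and of the 8 genes of the Beclin 1 complex list 1 was higher and 2 were lower, beside 21.5% and 10.3% of all genes. Before ERCC scaling limma called 4 of these 8, all lower.

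In GV oocytes 26 of the 60 pathway genes were lower in Zar1/2-null oocytes, against 40.6% of all genes, and 1 was higher, against 2.83%, with a median of −0.40 against −0.38 for all genes. The Beclin 1 complex list had 7 of 8 lower, Atg14 among them at 22.5 ± 3.58 against 7.29 ± 1.30 (−1.51, adjusted p = 0.000106), and the ULK1 complex list 3 of 5. With the ERCC factor divided out 2 pathway genes were lower and 3 higher, against 13.1% and 7.26% of all genes. In growing oocytes 13 were lower and 3 higher, against 24.4% and 10.6% of all genes, with a median of −0.19 against −0.16. Vamp8 was lower there, at 146 ± 3.10 against 19.6 ± 2.18 (−2.84, adjusted p = 5.61e-06), the reverse of its direction in MII oocytes. Atg10, the E2-like enzyme that joins ATG12 to ATG5, measured 10.5 ± 0.798 against 3.26 ± 1.57 (−1.48, adjusted p = 0.000997).

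**Figure D5:**
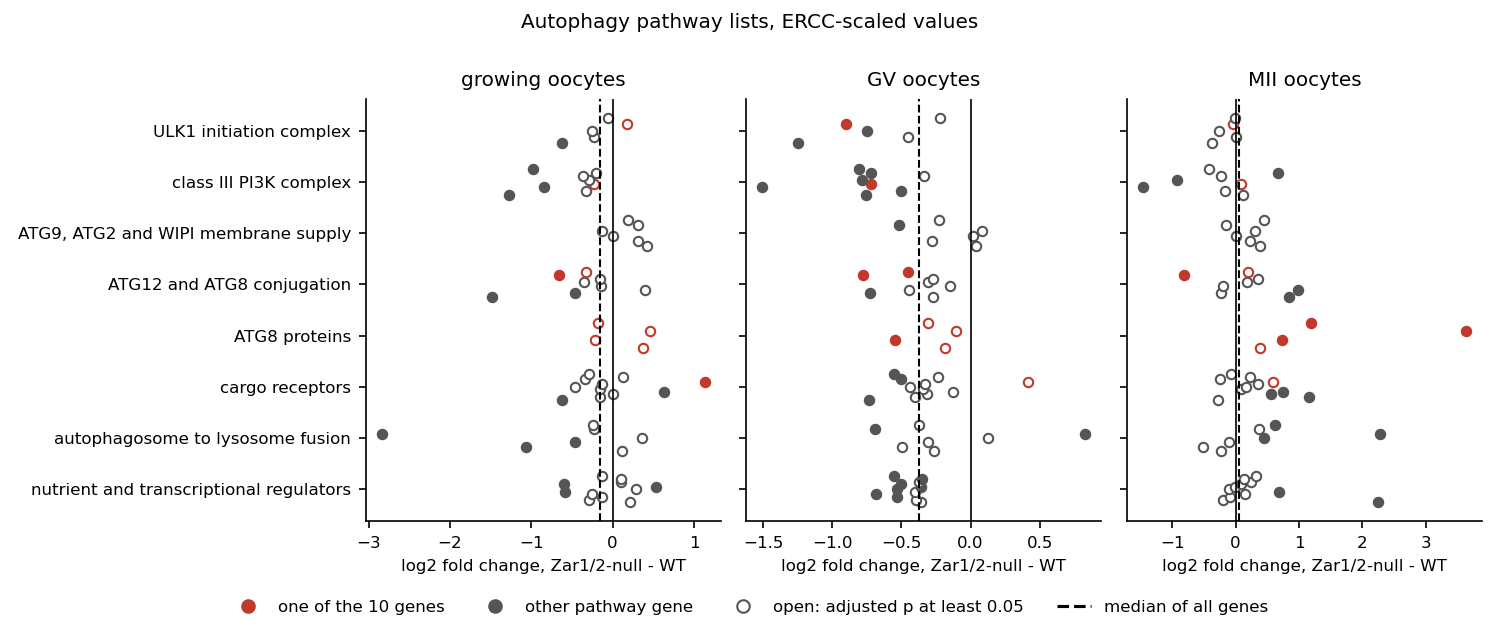
Log2 fold change between Zar1/2-null and WT oocytes (horizontal axis, ERCC-scaled values) of the 60 tested genes of 8 autophagy lists at each stage. Red points are among the 10 genes described, filled points have an adjusted p under 0.05, and the dashed line is the median of all genes. Map1lc3a is the rightmost point in MII oocytes at 3.63, and Vamp8 the leftmost in growing oocytes at −2.84.

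The gene of the table whose pattern over the 12 libraries was most like that of each well-expressed gene was also sought, as the smallest root mean square difference of log2(FPKM + 1) centred on each gene's own mean. For Map1lc3a it was Pgs1 (difference 0.222 on the log2 scale), for Map1lc3b Nfu1 (0.0977), for Gabarapl2 Atp5c1 (0.112), for Gabarap Mrps15 (0.156), for Atg5 Smad2 (0.114), for Becn1 Ppapdc1b (0.0720) and for Sqstm1 Snx5 (0.250). All 12 libraries share the stages and the ERCC factors, which many genes follow, and the match of Sqstm1 was the loosest of the 7.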

How the data were processed

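RNA of 12 libraries of 10 oocytes (6 groups, 2 libraries each) was measured by Smart-seq2. The authors trimmed reads to 50 bp, mapped them to mm9 (TopHat2 2.1.1), kept uniquely mapped reads, computed FPKM with Cufflinks 2.2.1 and deposited FPKM multiplied by an ERCC factor. No counts are in the table, so depth per gene is not known. Samples were grouped by the labels, and no column was left unmapped. The 10 genes and the pathway and marker lists were chosen with earlier results of these data known.

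The factors were recovered from the digits: 100% of the values returned to 6 significant digits. limma 3.58.1 (R 4.3.3) was fitted to log2(FPKM + 1) over all 12 libraries with 1 term per group and an eBayes trend, for the 11502 genes that reached 1 FPKM in some library. Calls were two-sided, at a Benjamini-Hochberg adjusted p under 0.05. The fold rule (3-fold between genotypes, 10-fold from GV to MII) set means to at least 1 FPKM and used no test. Other pathway genes are named if called with a 3-fold difference between genotypes. Alternatives were no ERCC scaling, median scaling, a pseudocount or floor of 0.1 FPKM, no filter, a mean of at least 5 FPKM, a replicate block, only the libraries compared, eBayes without a trend, geometric means and leaving out each library. The crossed replicate block was chosen after seeing the data. Sequences came from mm9 and GENCODE M1 (samtools 1.23.1, blastn 2.17.0).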

Additional observations from a re-analysis of the deposited data

Results flagged for a closer look

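The effect of the null genotype differed between stages, by the interaction term of limma, for the following genes. From GV to MII oocytes the log2 fold change between the genotypes rose by 3.74 for Map1lc3a, by 1.5 for Map1lc3b and by 1.28 for Gabarapl2. It rose by 0.857 for Ulk1 and by 0.808 for Becn1. With the ERCC factor divided out the term was called for Map1lc3a and Map1lc3b of these 5. From growing to GV oocytes it changed by −1.08 for Ulk1, a call not made with the factor divided out.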

How the results depend on the processing

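The calls among the 9 tested genes depended on the ERCC scale. In growing oocytes 2 genes were called on the deposited scale and 4 without ERCC scaling. In GV oocytes 5 were called, and 1 without ERCC scaling or with median scaling. There were 3 with a pseudocount of 0.1 FPKM or with no filter, and 2 with only the libraries compared. With a mean of at least 5 FPKM 3 were called, and that filter left Ulk1 and Atg7 untested. From growing to GV, 5 were called in WT, 0 under either other scaling (1 at an unadjusted limma p under 0.05), 2 with the pseudocount, 3 with no filter and 1 with only the libraries compared. In Zar1/2-null oocytes 8 were called, and 4 under either other scaling. The stage difference of the genotype effect between growing and GV was called for 1 gene, Ulk1. It was called for 0 under either other scaling (1 at an unadjusted limma p under 0.05), no filter or only the libraries compared. With the 5 FPKM mean Ulk1 was not tested. The stage difference between GV and MII was called for 5, and for 3 under either other scaling. With a floor of 0.1 FPKM the fold rule was passed by 2 genes in MII oocytes, by 2 from GV to MII in WT and by 1 in Zar1/2-null oocytes, where 1, 1 and 0 passed it with the 1 FPKM floor. From GV to MII 9 genes fell in WT and 6 in Zar1/2-null oocytes, and 5 and 3 under either other scaling, where 1 and 3 rose. The other numbers of calls, counted over both directions, stayed within 1.5 times the reported ones.

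Among changes called on at least 1 of the scales, without ERCC scaling and with median scaling, the change from GV to MII turned positive in WT for Ulk1 (0.55 and 0.43), Becn1 (0.74 and 0.67) and Atg5 (0.068 and 0.010), and in Zar1/2-null oocytes for Becn1 (0.90 and 0.83), Map1lc3a (0.67 and 0.62) and Map1lc3b (0.052 and 0.0086). The change from growing to GV turned positive for Map1lc3b in Zar1/2-null oocytes (0.035 and 0.080). A further 15 of the 81 changes tested turned sign without being called on any of these scales. These alternatives rescale each library, which also changes the weight of the added 1 FPKM on low values. The genes tested differ too, with 11502 on the deposited scale, 12155 without ERCC scaling and 10720 with median scaling.

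Leaving out 1 library at a time gave 0 to 3 calls in growing and 1 to 4 in GV oocytes, 0 to 5 for growth in WT, 0 to 1 and 3 to 5 for the stage differences, and 0 to 1 genes past the fold rule in GV oocytes. The genotype difference of Map1lc3a and of Map1lc3b in MII oocytes passed the test under every alternative (for Map1lc3a adjusted p at most 0.000648). The ERCC factors appear to be set separately for each replicate number. They were 1 in both WT growing libraries, for which the paper lists different ERCC percentages. In WT GV oocytes they were 0.836 and 0.697, where it lists equal ones. Beyond the factors, the replicate numbers were not shown to pair the libraries. The correlation over genes of replicate differences between groups ran from −0.117 to 0.163, and it does not see a shift shared by all genes. A replicate block gave 3 calls in growing, 5 in GV and 4 in MII oocytes, and a crossed replicate block for GV oocytes gave 5. The table holds no counts, so the counting error of low values, such as those of Gabarapl1, is not known.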
